A study of Mus musculus with 25 samples.

Results

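The synaptonemal complex is the protein ladder that holds paired homologous chromosomes together during meiotic prophase. Transcripts of 8 genes that encode its structural proteins were followed in mouse testis germ cells with and without YTHDC2: Sycp1, Sycp2, Sycp3, Syce1, Syce2, Syce3, Tex12 and 4930447C04Rik, the symbol used in the deposited matrix for Six6os1. The genes were taken by name, and all 8 were found among the 14103 genes of the matrix. Single-cell RNA-seq had been done on 4N cells, cells with a replicated genome, of postnatal day 10 mice: 2 libraries of Ythdc2 knockout (KO) mice, here KO A and KO B, and 1 library of wild-type (WT) mice. Day 10 is the age label, while the sample titles also carry the word embryo, and testis is the tissue named in the extraction protocol. YTHDC2 unwinds RNA and binds it through a YTH domain, and without it male germ cells do not complete the switch out of mitosis into meiosis. The labels refer to earlier work for the KO allele and describe the hybrid C57BL/6 and DBA/2 background for the other mutant lines of the series. The sources used here do not say how many animals gave each library, so p-values measure only the spread between libraries, which may be technical.

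In the mature complex, lateral elements run along each chromosome axis, transverse filaments span the gap between homologues, and a central element joins the filament ends in the middle. SYCP2 and SYCP3 build the lateral elements and SYCP1 the transverse filaments. SYCE1, SYCE2, SYCE3, TEX12 and SIX6OS1 make up the central element, in which SYCE2 and TEX12 assemble into fibres and SIX6OS1 binds SYCE1. Axes appear at leptotene, when SYCP3 first forms lines, and the central region forms during zygotene as homologues synapse. Loss of these proteins in mice arrests male meiosis. A spermatogonium, the mitotic precursor, has no complex.

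The 4528 cells carried 18089957 unique molecular identifiers (UMIs, each marking 1 captured RNA molecule) in 1522 cells of KO A, 25447581 in 1855 cells of KO B and 16342955 in 1151 cells of WT. Levels below are normalised UMIs per cell, the UMI count divided by the size factor of the cell and averaged over the cells of a library. UMI levels of different genes are not comparable here, since differences in capture between genes were not accounted for. The authors' clusters are given by number: cluster 1 is named for undifferentiated spermatogonia, cluster 2 for differentiating spermatogonia, cluster 3 for leptotene and zygotene spermatocytes, and clusters 4 and 5 for mixtures of differentiating and leptotene-zygotene cells. Cluster 3 held 0 cells of KO A, 0 of KO B and 427 of WT. Cluster 5 held 335 cells of KO A, 510 of KO B and 1 of WT, and cluster 4 held 592, 441 and 24 cells of KO A, KO B and WT. Cluster 2 held 529, 814 and 654 cells, and cluster 1 held 66, 90 and 45 cells in the same order. The 6 leptotene-zygotene markers (Spo11, Dmc1, Meiob, Prdm9, Mei4 and Rad51ap2) summed to 455 and 405 CPM (counts scaled to a common library total) in cluster 5 of the KO A and KO B libraries, against 896 CPM in cluster 3 of WT and 124, 125 and 177 CPM in cluster 2 of KO B, KO A and WT. The 8 undifferentiated markers summed to 515 to 702 CPM in cluster 1 and 31.3 to 51.6 CPM in cluster 2. The 6 differentiating markers summed to 696 to 1037 CPM in cluster 2 and 2405 to 2569 CPM in cluster 5, most of it Stra8, the gene that retinoic acid induces ahead of meiosis. Without Stra8 the other 5 summed to 384 and 408 CPM in cluster 5 of the KO A and KO B libraries, and to 539, 469 and 367 CPM in cluster 2 of KO A, KO B and WT. Sertoli markers summed to 4.24 to 34.0 CPM over all clusters with at least 20 cells. Ythdc2 itself stood at 0.570 and 0.519 normalised UMIs per cell in cluster 2 of KO A and KO B, against 1.95 in WT.

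The genes lie on 8 different chromosomes of the GRCm38.p6 assembly: Sycp1 at chr3:102818499-102936100, Sycp2 at chr2:178345295-178407776, Sycp3 at chr10:88459587-88473236 and Syce1 at chr7:140777229-140787854. Syce2 lies at chr8:84872111-84887446, Syce3 at chr15:89390174-89410503, Tex12 at chr9:50557148-50561268 and 4930447C04Rik at chr12:72880193-72917957. RefSeq promoter windows of that build, 250 bases before to 50 after an annotated start, matched all 8 genes (10 windows, 2 each for Syce2 and Syce3). Both strands of the first window of each gene were searched for the letters CACGTG (the palindromic E-box of basic helix-loop-helix factors), TTCCCGC (an E2F core), TGACGT (a cyclic AMP response half-site) and AACNGT (a MYB core). CACGTG was present in 4 of 8 genes (Sycp1, Sycp3, Tex12 and 4930447C04Rik), against 7.15% of 32851 RefSeq promoter windows. TTCCCGC was present in 2 of 8 (Sycp3 and Tex12), against 4.60%. AACNGT was present in 3 of 8, against 26.1%, and TGACGT in 0 of 8, against 7.51%. The first windows held 5 to 26 CpG pairs, with a median of 7 over all windows, and CACGTG itself holds a CpG. The part of CpG content in these shares was not tested. Of these windows 4 are shown, chosen by expression and by letters together, so they say nothing of a link between letters and expression. Sycp1 is the gene whose cluster 2 level came nearest to its cluster 3 level in WT. Sycp3 and Tex12 were late in WT and carry both E-box and E2F letters in their first window. Syce3 is a late gene in whose 2 windows none of these letters occurs. The windows of Sycp2 and Syce1, also late and not shown, hold none of them either. The second window of Syce2, also a late gene, holds E-box and E2F letters too, so that over any window CACGTG was present in 5 of 8 genes and TTCCCGC in 3 of 8. Each runs 5′ to 3′ on the strand of the gene, with matches in capitals, and the Sycp1 match near its end is a pair of overlapping AACNGT letters.
Sycp1 (chr3:102936051-102936350, minus strand): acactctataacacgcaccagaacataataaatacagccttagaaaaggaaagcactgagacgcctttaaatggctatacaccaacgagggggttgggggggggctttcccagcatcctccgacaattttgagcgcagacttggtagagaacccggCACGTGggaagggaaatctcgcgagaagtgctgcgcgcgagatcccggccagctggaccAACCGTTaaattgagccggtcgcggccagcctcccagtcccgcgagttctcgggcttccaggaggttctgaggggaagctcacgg
Sycp3 (chr10:88459337-88459636, plus strand): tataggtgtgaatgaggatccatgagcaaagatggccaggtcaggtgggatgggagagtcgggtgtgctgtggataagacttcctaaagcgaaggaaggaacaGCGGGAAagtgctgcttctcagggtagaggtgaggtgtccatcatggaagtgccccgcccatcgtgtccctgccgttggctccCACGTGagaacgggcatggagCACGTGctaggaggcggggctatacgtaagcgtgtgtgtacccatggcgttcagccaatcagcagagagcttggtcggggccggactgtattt
Tex12 (chr9:50561219-50561518, minus strand): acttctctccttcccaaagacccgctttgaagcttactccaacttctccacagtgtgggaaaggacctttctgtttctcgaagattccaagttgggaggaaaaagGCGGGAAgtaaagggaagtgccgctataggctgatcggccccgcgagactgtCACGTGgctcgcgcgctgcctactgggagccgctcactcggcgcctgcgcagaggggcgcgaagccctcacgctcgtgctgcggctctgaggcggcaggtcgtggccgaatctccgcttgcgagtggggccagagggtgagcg
Syce3 (chr15:89410454-89410753, minus strand): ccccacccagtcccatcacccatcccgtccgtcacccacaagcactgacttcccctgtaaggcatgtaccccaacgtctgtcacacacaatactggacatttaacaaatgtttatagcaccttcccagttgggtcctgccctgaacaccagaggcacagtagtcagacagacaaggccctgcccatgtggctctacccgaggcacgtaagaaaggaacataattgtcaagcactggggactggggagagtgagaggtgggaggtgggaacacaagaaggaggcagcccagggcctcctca
The E-box letters began 94 bases upstream of the start in Sycp1, 64 and 43 bases upstream in Sycp3, and 93 bases upstream in Tex12. The E2F letters began 147 bases upstream in Sycp3 and 145 bases upstream in Tex12. These are letter matches and say nothing of binding.

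Transcripts of all 8 genes were already above the free-RNA level in cluster 1. That level was read from 33 cluster 1 cells in which genes of smooth muscle, stroma or blood gave 10 UMIs or more, a class that should lack synaptonemal complex RNA. Median depth was 19632 UMIs per cell in the other 168 cluster 1 cells, against 13822 UMIs in these 33. Sycp1, the transverse filament gene, stood at 4.10 normalised UMIs per cell in the 168 cells (95% counting interval 3.89 to 4.32), against 0.637 (0.384 to 0.995) in the 33. Syce3, of the central element, stood at 0.510 (0.441 to 0.587), against 0.0936 (0.0193 to 0.274). After each cell was thinned to 5000 UMIs, 79.2% of the 168 cells and 24.2% of the 33 cells held a Sycp1 UMI. For each of the 8 genes the 2 counting intervals were apart. These intervals cover counting error only, since a single pool of cells stands behind each value.

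In WT, a gene was called already on where its level in cluster 2 was at least 50% of its level in cluster 3, and late otherwise. Sycp1 was the only gene already on and the other 7 were late. With 1 WT library these steps carry no test, and the order below describes that library. Sycp1 stood at 3.49, 13.5 and 20.1 normalised UMIs per cell in clusters 1, 2 and 3 of WT, so its cluster 2 level was 67.1% of its cluster 3 level. The largest step of Sycp1 thus lay between clusters 1 and 2, at 3.87-fold, and the next was 1.49-fold.
The late genes spread over a range. 4930447C04Rik, Syce1 and Sycp2 had reached 36.9%, 35.8% and 33.6% of their cluster 3 level in cluster 2. Syce2 and Tex12, whose proteins assemble together, had reached 29.4% and 23.7%. Syce3 and Sycp3 came last, at 19.0% and 18.7%. Sycp3, which builds the axis before any synapsis, was thus among the latest transcripts by this measure: 1.42, 2.94 and 15.7 normalised UMIs per cell in clusters 1, 2 and 3 of WT. Sycp2, its partner in the lateral element, stood at 0.702, 2.62 and 7.78. Of all 10348 genes compared, 11.7% were at least 2-fold higher in cluster 3 than in cluster 2 of WT. Among the synaptonemal complex genes it was the same 7 of 8, all but Sycp1, since this limit restates the rule for late. Cells were assigned to clusters by the authors on their expression, so this share is a description.
The earlier step, between clusters 1 and 2, could be read in all 3 libraries. Sycp1, Sycp2 and 4930447C04Rik were at least 2-fold higher in cluster 2 in each library, 3 of 8 against 4.77% of all genes. Sycp2 was 2.84-fold and 3.27-fold higher in KO A and KO B, and 3.73-fold higher in WT. Syce2 moved least of the genes with the same direction in all 3 libraries, 1.14-fold and 1.17-fold in KO A and KO B and 1.43-fold in WT. Tex12 differed in direction: its cluster 2 level was 0.666 and 0.757 times its cluster 1 level in KO A and KO B, and 1.54 times in WT. Syce3 differed in direction as well, though barely, at 0.988 times in KO A, 1.27 times in KO B and 1.47 times in WT. Cluster 1 levels in all these steps include the cells with smooth-muscle or blood UMIs, which lower them. Those were 10 of 66 cells in KO A, 13 of 90 in KO B and 10 of 45 in WT. In the other 168 cells, pooled over libraries, Sycp1 stood at 4.10 and Syce2 at 2.92. In cluster 2 of KO A Sycp1 stood at 7.79, under 2-fold above that level. Syce2 stood at 2.94 and 2.89 in cluster 2 of KO A and KO B, close to it.

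**Figure D1:**
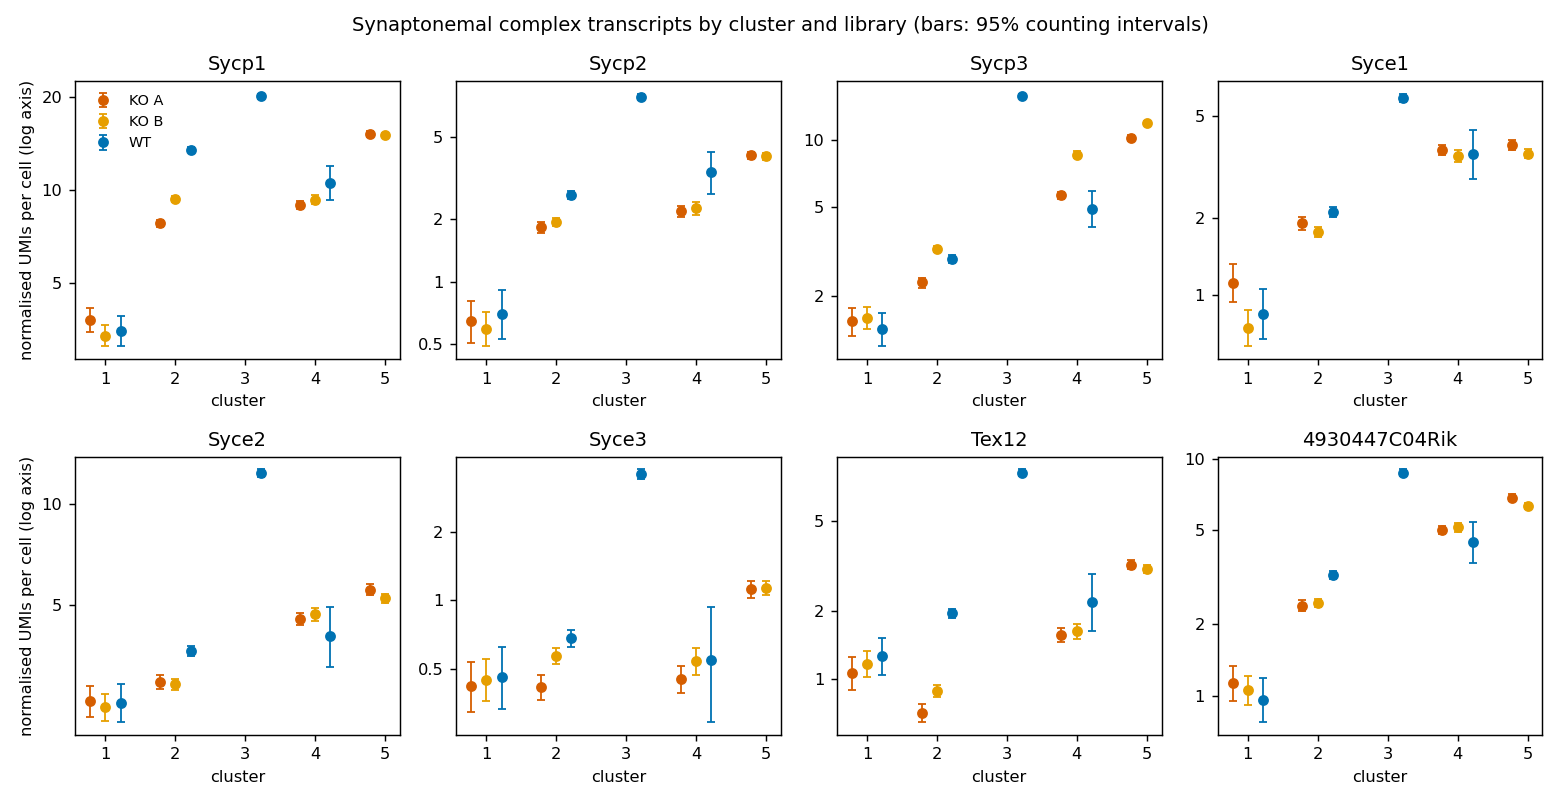
Level of each of the 8 genes by cluster, in normalised UMIs per cell on a log axis, for the KO A, KO B and WT libraries. Each point is a library's mean over its cells and each bar a 95% counting interval; groups under 20 cells are left out. Each gene has its highest point in cluster 3, which only WT cells fill, and Sycp1 has the smallest gap between clusters 2 and 3 of WT (13.5 and 20.1).

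In cluster 1, KO and WT were not told apart for any of the 8 genes. None of the 8 passed an adjusted p under 0.05 (limma, Benjamini-Hochberg over all genes), where 2.84% of all tested genes were called in either direction. At an unadjusted p under 0.05 it was 0 of 8, against 16.2% of all tested genes, and the lowest p was 0.325. By edgeR and DESeq2 the count was also 0. Log2 differences, KO minus WT, ran from -0.19 for Tex12 to 0.18 for 4930447C04Rik, and 4 of 8 were below 0. Sycp1 stood at 3.79 and 3.37 normalised UMIs per cell in KO A and KO B, against 3.49 in WT, and Sycp3 at 1.54 and 1.60, against 1.42. With 66 and 90 KO cells and 45 WT cells, standard errors were 0.16 to 0.27 on the log2 scale, so a difference of that order was not detectable. Smooth-muscle, stromal and blood markers in the KO A and KO B libraries summed to 1380 and 1580 CPM, against 2706 CPM in WT, and the count was still 0 without the cells that carried them.

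In cluster 2, Tex12 and Sycp2 fell in KO and all 8 differences were below 0, against 46.3% of all tested genes. Tex12, of the central element, had 0.703 and 0.878 normalised UMIs per cell in KO A and KO B, against 1.95 in WT. Both KO libraries lay far below WT, at a log2 difference of -1.30 ± 0.14 (SE; limma, adjusted p = 0.00105). Sycp2 had 1.83 and 1.95 in KO A and KO B, against 2.62 in WT, a log2 difference of -0.47 ± 0.12 (limma, adjusted p = 0.0468). These 2 of 8 compare with 1.43% of all genes called lower. Sycp1 had 7.79 and 9.36 in KO A and KO B, against 13.5 in WT (log2 difference -0.66 ± 0.19, limma adjusted p = 0.0717). 4930447C04Rik had 2.40 and 2.46, against 3.23 (-0.41 ± 0.12, limma adjusted p = 0.0706). For these, as for Syce1, Syce2 and Syce3, both KO libraries lay below WT without passing the test, a pattern of sign that 36.8% of all tested genes had. Syce1 differed by -0.20, Syce2 by -0.32 and Syce3 by -0.47. Sycp3 was the exception, with 2.30 and 3.25 in KO A and KO B, against 2.94 in WT, so WT lay between the KO libraries.
The calls in cluster 2 depended on the method: 6 genes were called lower with TMM scaling in limma or edgeR, 1 without called doublets and 0 without the filter on low means. Sycp2 lost its call in DESeq2 as well (adjusted p = 0.216). Median depth in cluster 2 was 9667 and 11793.5 UMIs per cell in KO A and KO B, against 14298.5 in WT. With cells thinned to 5000 UMIs the log2 difference of Tex12 was -1.19 and that of Sycp2 -0.40, and Sycp2 lost its call (limma, adjusted p = 0.0520). The median mitochondrial share of UMIs was 9.79% and 7.03% in cluster 2 of KO A and KO B, against 5.68% in WT. Of the stage markers measured in cluster 2, the recombination genes Dmc1 (log2 difference -0.51) and Mei4 (-0.89) fell in KO, and Kit, the receptor of differentiating spermatogonia, rose (0.57). Their part in the differences of the 8 genes was not tested. In clusters 1 and 2 together Tex12 and Sycp2 were again the genes called lower (log2 -1.21 and -0.50), 2 of 8 against 1.65% of all genes.

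In clusters 3, 4 and 5 combined, all 8 genes fell in KO, and both KO libraries lay below WT for each, as they did for 42.0% of all tested genes. In KO this class held clusters 4 and 5 only, while in WT it was 427 cluster 3 cells, 24 cluster 4 cells and 1 cluster 5 cell, so a lower level per cell and another mix of stages cannot be told apart. In all, 29.1% of genes were called lower here, against which 8 of 8 stands. Syce3, of the central element, had 0.690 and 0.857 normalised UMIs per cell in KO A and KO B, against 3.42 in WT, 4.42-fold lower. Tex12 had 2.15 and 2.39, against 7.89 in WT, 3.47-fold lower. Log2 differences were -2.14 ± 0.10 for Syce3 and -1.79 ± 0.11 for Tex12 (SE). Both stood well apart from WT in each KO library.
Sycp2 followed with 2.86 and 3.20 in KO A and KO B, against 7.54 in WT (-1.31 ± 0.11). Syce2 had 4.90 and 4.97, against 11.9 in WT (-1.27 ± 0.13). Sycp2 and Syce2 thus lay at less than 50% of the WT level in either KO library. Sycp1 had 11.2 and 12.4 in KO A and KO B, against 19.6 in WT (-0.73 ± 0.17). Syce1 had 3.75 and 3.54, against 5.77 in WT (-0.66 ± 0.11). 4930447C04Rik, whose protein binds SYCE1, had 5.68 and 5.78, against 8.51 in WT (-0.57 ± 0.13). These 3 kept more than 50% of the WT level. Sycp3 had 7.30 and 10.4 in KO A and KO B, against 15.1 in WT (-0.80 ± 0.15), and varied most between the KO libraries.
Adjusted p-values of the 8 ran from 1.56e-93 for Syce3 to 3.49e-05 for Sycp1 (limma), and rest on a spread that limma shared wholly across genes. Sycp3 was not called by DESeq2 (adjusted p = 0.111). The median log2 difference of the 8 was -1.03, with 0.08 over all genes.

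**Figure D2:**
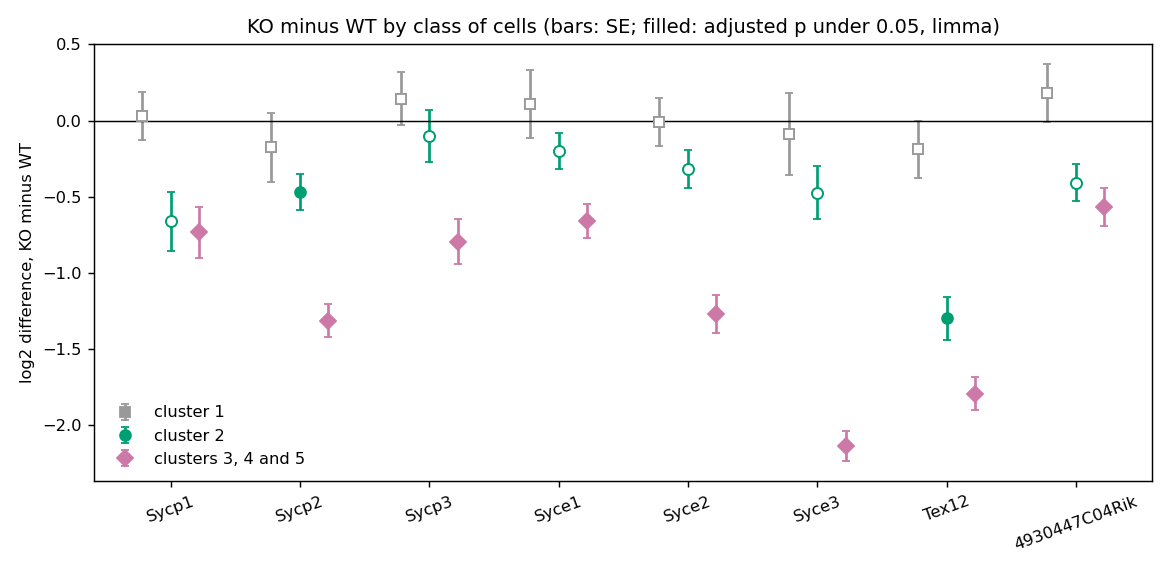
Log2 difference, KO minus WT, of each gene in cluster 1 (squares), cluster 2 (circles) and clusters 3, 4 and 5 together (diamonds), with standard errors from limma over 2 KO libraries and 1 WT library. Filled symbols passed an adjusted p under 0.05: none in cluster 1, Tex12 and Sycp2 in cluster 2, and all 8 in the later class, from -0.57 (4930447C04Rik) to -2.14 (Syce3).

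Over all cells, 5 of 8 genes fell in KO, against 14.8% of all genes: Syce3, Tex12, Sycp2, Syce2 and Sycp1, with log2 differences of -1.43, -1.37, -0.86, -0.76 and -0.61. Sycp3, Syce1 and 4930447C04Rik did not pass, at -0.35, -0.32 and -0.31. The mix of cells moved with this comparison: KO held 0 cells of cluster 3, against 427 in WT. Over all cells the 5 measured leptotene-zygotene markers of 6 all fell, 5 of 6 differentiating markers rose, and 2 of 3 measured undifferentiated markers rose. The median log2 differences of these 3 lists were -0.86, 0.80 and 0.41 in that order, with 0.02 over all genes.

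The later class was mostly cluster 3 in WT (427 cells) and held no cluster 3 cells in KO. A smaller step from cluster 2 and another mix of stages therefore cannot be told apart. With that limit, the step between cluster 2 and the later class was itself tested, as the difference in log2 level within each library. It was smaller in KO for 6 of 8 genes, against 21.5% of all genes. For Syce3 the step was 0.72 and 0.58 in KO A and KO B on the log2 scale, against 2.31 in WT, a difference of -1.66 ± 0.13 (limma, adjusted p = 3.47e-34). For Sycp3, which did not pass in cluster 2, it was 1.66 and 1.68 in KO A and KO B, against 2.36 in WT (-0.70 ± 0.10, limma, adjusted p = 7.60e-12). The Sycp3 step of the KO libraries was nearly the same although their levels differed. Syce2 (-0.95), Sycp2 (-0.85), Tex12 (-0.49) and Syce1 (-0.46) passed as well.
The step was not told apart for Sycp1 and 4930447C04Rik. Sycp1 had a step of 0.52 and 0.41 in KO A and KO B, against 0.54 in WT (-0.07 ± 0.10, limma, adjusted p = 0.538). 4930447C04Rik had 1.24 and 1.23 in KO A and KO B, against 1.40 in WT (-0.16 ± 0.10, limma, adjusted p = 0.154). Those 2 genes, which had the highest shares of their cluster 3 level in cluster 2 of WT, had log2 differences of -0.73 and -0.57 in the later class, against -0.66 and -0.41 in cluster 2, where neither passed.

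Cluster 5 held the highest levels of all 8 genes among KO cells, and the genes had come to different shares of the WT cluster 3 level there. Cells were assigned by the authors on their expression, so these shares are a description. 4930447C04Rik stood at 78.2% and 72.4% of the WT cluster 3 level in cluster 5 of KO A and KO B, Sycp1 at 75.3% and 74.9% and Sycp3 at 64.9% and 76.0%. Syce1 stood at 65.3% and 60.6%, and Sycp2 at 52.1% and 51.6%. Syce2 at 44.8% and 42.3%, Tex12 at 39.0% and 37.1% and Syce3 at 31.2% and 31.6% came lowest. Those lowest 3 are central element genes, but so are Syce1 and 4930447C04Rik, so the order did not follow the parts of the complex. These 3 were at least 2-fold lower in cluster 5 of both KO libraries than in cluster 3 of WT, against 4.07% of all genes. Of the first 4 genes Sycp1 kept its place in both KO libraries and the other 3 changed theirs. Sycp2, Syce2, Tex12 and Syce3 followed in the same order in both.
Transcript gain within the KO was nonetheless present. Sycp2, Sycp3, Syce1, Tex12 and 4930447C04Rik were at least 2-fold higher in cluster 5 than in cluster 2 in both KO libraries, 5 of 8 against 5.11% of all genes. Sycp3 was 4.43-fold and 3.68-fold higher in KO A and KO B, and Tex12 4.56-fold and 3.48-fold. Syce3 was 2.69-fold and 1.98-fold higher.
Cluster 4 is the one class of later cells with KO and WT members side by side, though WT had only 24 cells there, 2 of them called doublets. Sycp3 stood at 5.65 and 8.60 normalised UMIs per cell in cluster 4 of KO A and KO B, against 4.92 in WT (counting interval 4.06 to 5.91). Syce3 stood at 0.449 and 0.540, against 0.547 (0.291 to 0.935), so the counting error spanned both KO values. Tex12 stood at 1.56 and 1.63, against 2.19 (1.62 to 2.90). Sycp2 stood at 2.19 and 2.25, against 3.36 (2.63 to 4.22), below the interval in both KO libraries. Sycp1 stood at 8.93 and 9.32, against 10.6 (9.29 to 11.96), with KO A below the interval and KO B within it. In this cluster Syce1, Syce2 and 4930447C04Rik of KO A and KO B lay between 98.4% and 116% of the WT level. No test was made on these 24 cells.

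Cell by cell, after thinning to 5000 UMIs, the 8 genes together gave a median of 23 and 23 UMIs per cell in cluster 5 of KO A and KO B, against 33 in cluster 3 of WT. In cluster 4 the medians were 15, 17 and 16.5 in KO A, KO B and WT, in cluster 2 they were 9, 11 and 13, and in cluster 1 they were 6, 5 and 5. In the 33 cells with smooth-muscle or blood UMIs the median was 0. All 8 transcripts were detected in the same cell in 19.4% and 17.6% of cluster 5 cells of KO A and KO B, against 55.7% of cluster 3 cells of WT, whose exact binomial interval was 50.9% to 60.5%. In cluster 2 it was 1.13%, 1.35% and 3.82% of cells in KO A, KO B and WT. Within a cluster and library the median rank correlation of gene pairs was 0.01 to 0.19, too weak in such sparse counts to describe cells.

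**Figure D3:**
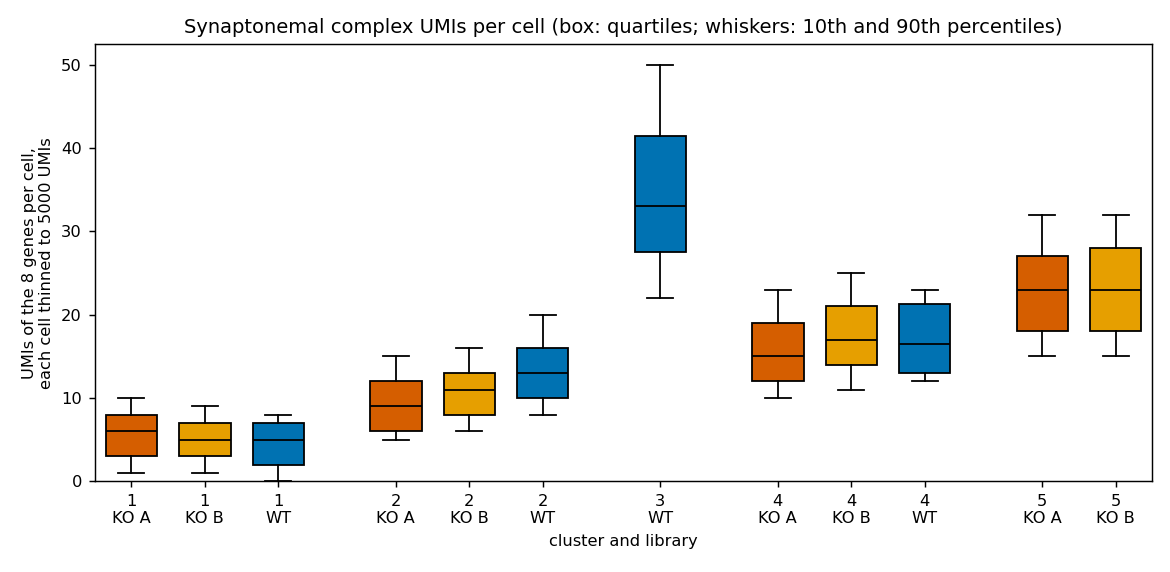
UMIs of the 8 genes per cell, each cell thinned to 5000 UMIs, by cluster and library. Boxes show quartiles with the median as a line, and whiskers the 10th and 90th percentiles; cluster 5 of KO A and KO B has medians of 23 and 23, and cluster 3 of WT a median of 33.

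Some KO cells carried a high load of synaptonemal complex and of M-phase transcripts, the genes of mitotic entry and chromosome segregation, at the same time. A high synaptonemal complex load was set at 22 UMIs or more of the 8 genes, the 10th percentile of WT cluster 3, and a high M-phase load at 44 UMIs or more of 20 M-phase genes, the median of WT cluster 2. Both limits were set after the values were seen. In cluster 5, 64 of 335 KO A cells (19.1%, exact binomial interval 15.0% to 23.7%) and 110 of 510 KO B cells (21.6%, 18.1% to 25.4%) passed both limits, against 14 of 427 cluster 3 cells of WT (3.28%, 1.80% to 5.44%). The same share was 6.76% and 9.75% in cluster 4 of KO A and KO B, where it was 3 of 24 cells in WT. In cluster 2 it was 1.32%, 1.11% and 2.75% in KO A, KO B and WT. Doublets were called in 22 of 4528 cells (5 in KO A, 11 in KO B and 6 in WT), and the part of uncalled doublets in these shares was not tested. Taken singly, the synaptonemal complex limit was passed by 59.1% and 56.3% of cluster 5 cells of KO A and KO B. In cluster 3 of WT it was passed by 90.9% of cells. The M-phase limit was passed by 29.0%, 34.7% and 4.92% of the same cells. The joint shares move with these single shares, and whether the 2 loads go together beyond them was not tested.

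**Figure D4:**
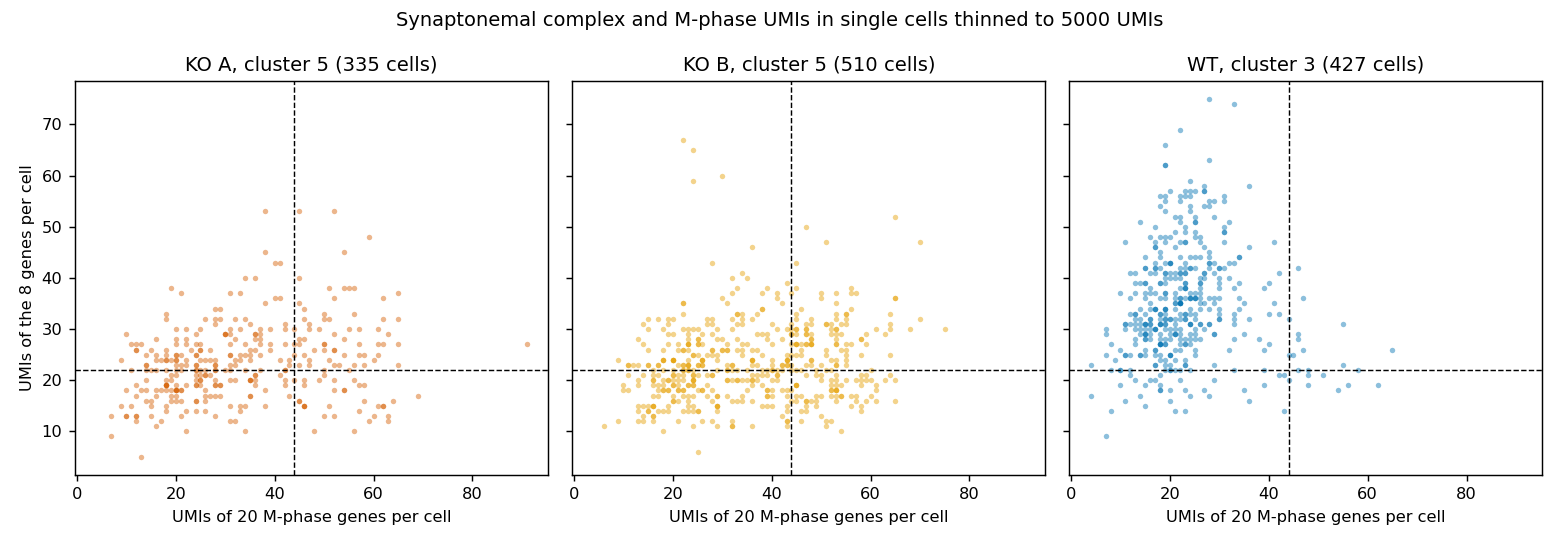
UMIs of the 8 synaptonemal complex genes against UMIs of 20 M-phase genes in single cells thinned to 5000 UMIs, for cluster 5 of KO A and KO B and cluster 3 of WT. Dashed lines mark 22 and 44 UMIs; 64 of 335 and 110 of 510 KO cells lie in the upper right field, and 14 of 427 WT cells.

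Other genes of the meiotic chromosome were read as counts from lists. Of 6 axis and meiotic cohesin genes, 5 fell in KO in clusters 3, 4 and 5, against 29.1% of all tested genes: Rad21l (-2.83), Smc1b (-1.12), Hormad2 (-1.05), Stag3 (-0.95) and Hormad1 (-0.95). RAD21L, SMC1B and STAG3 are cohesin subunits of meiotic axes, and HORMAD1 and HORMAD2 mark unsynapsed axes. Rec8, which encodes a meiotic kleisin subunit of cohesin, rose: it had 1.14 and 0.962 normalised UMIs per cell in KO A and KO B, against 0.689 in WT (0.59 ± 0.11, limma, adjusted p = 8.89e-08). In cluster 2, 4 of these 6 genes fell (Hormad1, Rad21l, Smc1b and Stag3), against 1.43% of all tested genes. Of 13 genes for crossover, telomere attachment and synapsis, 8 fell in the later class, against the same 29.1%, and 1 rose, Trip13, named after its value was seen (log2 difference 0.85), which encodes the ATPase that removes HORMADs from axes. Of the 20 M-phase genes, 14 rose there and 3 fell, where 37.4% of all tested genes rose and 29.1% fell. The median log2 difference of that list was 1.19.

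The 5 genes outside the set whose profile was most like its mean profile over 12 sums of cells by cluster and library were Chchd6 (Pearson r = 0.994), Vamp3 (0.985), Tipin (0.985), Hint3 (0.984) and Pde6d (0.984), out of 8802 genes. The sums share libraries and clusters, so r describes likeness here and carries no test. The 8 genes themselves correlated with their mean profile at 0.82 (Syce3) to 0.96 (Sycp2), and Tex12 was at 0.88. The authors' deposited table also gives each gene a score for a U-rich motif, whose scale is not stated. By rank among 14103 genes, 4930447C04Rik stood at the 99.8th percentile, Sycp1 at 98.8, Sycp3 at 97.2 and Tex12 at 96.5. Sycp2 stood at 84.7, Syce2 at 82.9, Syce3 at 78.5 and Syce1 at 31.2, so 7 of 8 lay above the median and Syce1 below it. Whether these ranks go with the KO differences of the later class was not tested. Syce3 and Tex12, with the largest differences (-2.14 and -1.79), ranked at 78.5 and 96.5. 4930447C04Rik and Syce1, with the smallest (-0.57 and -0.66), ranked at 99.8 and 31.2. Between them lay Sycp2 (-1.31), Syce2 (-1.27), Sycp3 (-0.80) and Sycp1 (-0.73), ranked at 84.7, 82.9, 97.2 and 98.8.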

How the data were processed

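Per the submitters' processing notes, Cell Ranger 3.0.2, Scanpy and the mm10/GRCm38 build were used for the single-cell libraries. The authors deposited a matrix of natural logs, ln of 1 plus each count over its cell's size factor. The deposited cell table gives clusters, UMI counts, size factors (a score) and a mitochondrial fraction per cell, and the gene table a U-motif score. Undoing the log gave whole UMI counts for 100% of values within 0.001. Every cell had at least 3000 genes. No barcode was shared between libraries (0). The 2 KO libraries could not be tied to a particular KO sample. Bulk RNA-seq and iCLIP samples of the series were not analysed here.

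Mean count/size factor per library was tested as log2(value + 0.01) with limma 3.58.1 (trend, empirical Bayes) in R 4.3.3, for genes with a mean of at least 0.05, with Benjamini-Hochberg adjustment over all genes and calls at an adjusted p under 0.05. edgeR was planned for a matrix of counts; since log values had been deposited, the recovered counts went into edgeR 4.0.16 and DESeq2 1.42.0 as alternatives. One residual degree of freedom comes from the 2 KO libraries, so the fit takes the single WT library to be as variable as those, and library and genotype cannot be told apart in WT. Prior degrees of freedom were 25.0 over all cells, 23.7 in cluster 1, 11.0 in cluster 2, 10.8 in clusters 1 and 2, infinite in clusters 3, 4 and 5, and 1675 for the step. Log2 differences of low genes are understated by the pseudocount. Scrublet in Scanpy 1.11.5 called doublets in each library, which stayed in the main result. Counting intervals are exact Poisson and shares exact binomial (Clopper-Pearson), at 95%, and cover counting error only. The fit was also run on simulated data with known changes, and its outcome is not given here. There all libraries shared a mean profile apart from those changes. It therefore does not cover clusters 3, 4 and 5, where KO and WT held different clusters. The genes, lists and rules were chosen with earlier results of these data known. The text names all 8 genes, the axis and cohesin genes past the test in clusters 3, 4 and 5, and the 5 genes most like the mean profile among those at 20 CPM or more in at least 1 sum of at least 20 cells. Alternatives were TMM scaling, edgeR, DESeq2, a pseudocount of 0.1, no filter on low means, cells without called doublets, without somatic UMIs or thinned to 5000 UMIs, clusters made anew without the 8 genes, and each KO library left out. Clustering anew gave 13 clusters, and each took the number of the authors' cluster most common in it. By that naming 98.0% of cells kept their cluster, a share that the naming itself favours.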

Additional observations from a re-analysis of the deposited data

Results flagged for a closer look

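For 6 genes the step from cluster 2 to clusters 3, 4 and 5 differed between KO and WT by a test of the difference itself (limma, KO minus WT on the log2 scale): Syce3 -1.66, Syce2 -0.95, Sycp2 -0.85, Sycp3 -0.70, Tex12 -0.49 and Syce1 -0.46. Both KO libraries had the smaller step for each of these genes. The later class held cluster 3 cells in WT only, so a smaller step and another mix of stages cannot be told apart. Groups of 2 KO libraries and 1 WT library are too small to look for a library far from the others.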

How the results depend on the processing

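All 8 genes were called lower in clusters 3, 4 and 5 under every alternative that gives a test, with the exception of Sycp3 in DESeq2 (log2 -0.73, adjusted p = 0.111). In cluster 2, where 2 genes were called lower, the count was 6 with TMM-scaled sums in limma, 6 in edgeR, 4 after clustering anew, 1 without called doublets and 0 without the filter on low means. In clusters 1 and 2 together, also 2, it was 4 with TMM-scaled sums, 4 in edgeR, 4 without called doublets, 4 without somatic cells, 4 with thinned cells and 5 after clustering anew. The cause was not tested. Tex12 lost its cluster 2 call only without the filter (adjusted p = 0.201), and Sycp2 lost its own there (0.216), in DESeq2 (0.216), without doublets (0.0724) and with thinned cells (0.0520). Over all genes, calls in cluster 2 numbered 406, against 1457 with TMM, 1412 in edgeR, 50 in DESeq2, 3 without the filter, 113 without doublets, 673 thinned and 727 clustered anew. In cluster 1 they numbered 318, against 77 in edgeR, 3 in DESeq2, 0 without the filter and 544 without doublets. In clusters 1 and 2 together they numbered 490, against 63 in DESeq2 and 804 to 1103 under 4 alternatives. DESeq2 gave 1212 against 3188 over all cells and 3602 against 6183 in clusters 3, 4 and 5. Leaving out a KO library gives a value with no test: without KO A, Sycp3 stood at 0.15 in cluster 2 and -0.54 in clusters 3, 4 and 5, and without KO B at -0.35 and -1.05. No paired analysis was possible because the WT library carries no replicate number and the KO libraries could not be tied to numbered samples.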

Other observations

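Altogether 4 cells of KO B in cluster 5 carried more synaptonemal complex UMIs than any cell of KO A, with 67, 65, 60 and 59 UMIs of the 8 genes after thinning, where the highest KO A cell had 53. All 8 transcripts were detected in each, their M-phase UMIs were 22, 24, 30 and 24, and none was called a doublet. Ythdc2 UMIs were absent in 3 of the 4 cells and 1 was present in the other. Among all 510 cluster 5 cells of KO B, 43.3% held a Ythdc2 UMI before thinning and 15.5% after it. KO A had fewer cells in cluster 5, 335, so its highest cell was drawn from fewer. These cells were chosen after their values were seen.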
